A study of Mus musculus with 12 samples.

Results

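The glucocorticoid receptor gene Nr3c1, the genes of its HSP90 chaperone complex and its main coregulators were measured on Affymetrix expression arrays in BW5147, a T cell line from a mouse thymic lymphoma. The genes were Nr3c1, Hsp90aa1, Hsp90ab1, Fkbp4, Ptges3, Stip1, Ncoa1, Ncoa2 and Ncor1, 9 in all. Members were all probe sets whose platform annotation gave 1 symbol equal to one of these names. This rule found 12 probe sets of 6 genes among 20380 probe sets with 1 symbol, which represent 12393 genes. Nr3c1 and Hsp90aa1 had 3 probe sets each, Fkbp4 and Ncoa1 had 2 each, and Stip1 and Ncoa2 had 1 each. Hsp90ab1, Ptges3 and Ncor1 had no probe set of their own under the rule and were not analysed here. All 12 probe sets passed the filter on low signal, a mean of about 6.32.

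Cells were kept for 8 h under 6 conditions. These were dexamethasone (Dex, a synthetic glucocorticoid, 100 ng/ml) with interleukin-9 (IL-9, 100 U/ml), Dex with the chemokine CCL1 (100 U/ml), Dex alone, IL-9 alone, CCL1 alone, and no stimulation. All groups were cultures of the same line in the same medium with fetal calf serum. Each group held 2 arrays, 12 in all, which the labels number 1 and 2. Nothing in the labels says that the arrays of a group came from separate cultures, so that p-values measure only the spread between arrays, which may be technical. In total RNA of a culture, fewer expressing cells and less RNA per cell cannot be told apart.

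Without ligand, the glucocorticoid receptor is held in the cytosol by a chaperone machine. The adaptor Stip1 hands the receptor over to HSP90, of which Hsp90aa1 is the stress-inducible cytosolic form, and the immunophilin Fkbp4 then couples the complex to dynein and nuclear import. Bound to hormone, the receptor acts on its target genes through p160 coactivators such as Ncoa1 and Ncoa2. In thymocytes and many T lymphoma lines, glucocorticoids induce cell death, and the receptor is known to regulate its own transcript in a manner that differs between cell types.

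The deposited signals had a trimmed mean of 100 in 11 arrays and 100.1 in the other. The array Dex 2 stood apart, with 3.06% of kept probe sets more than 1 log2 away from their median over arrays, against 0.0884% to 0.464% in the other arrays. The array CCL1 2 lay in a separate table from another platform with the same probe sets. It is shown with the others, but entered no test unless that is stated. Of the T-lineage markers, Cd3g ranged from 531 to 661 in signal and Thy1 from 878 to 1525, while Cd247 and Cd5 lay below the filter. The B-cell markers Cd79a, Cd79b and Ms4a1 lay below it as well. The macrophage markers Csf1r, Lyz2, Adgre1 and Cd68 passed the filter, with no signal over 24.6. Of the fibroblast markers, Col1a1 and Pdgfra lay below the filter, and Col1a2 passed it with a highest signal of 16.2.

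Receptor targets did not follow the Dex label in the arrays numbered 1. Tsc22d3, which encodes the glucocorticoid-induced leucine zipper, had signals of 260 and 261 in Dex+IL-9, 280.2 and 290.3 in Dex+CCL1, and 349 and 422 in Dex (arrays 1 and 2 in this order, here and below). Without Dex the signals were 229.9 and 58.7 in IL-9, 330.0 and 70.8 in CCL1, and 347 and 109 in unstimulated cells. Array 1 of each group without Dex thus held Tsc22d3 near the level of the Dex arrays, and array 2 did not. Dex was therefore also compared within each array number, in a model with additive IL-9 and CCL1 terms. Since this split was chosen from the pattern, p-values of receptor targets in that model are no independent test of it. Within number 2, Dex raised Tsc22d3 by 1.79 log2 (SE 0.14, limma with Benjamini-Hochberg adjustment, adjusted p = 6.15e-05), whereas within number 1 the difference was -0.02 (adjusted p = 0.9998). Fkbp5, a receptor target that encodes an HSP90 co-chaperone, rose by 1.03 within number 2 (adjusted p = 0.00441). Per1, a clock gene and receptor target, had signals in the arrays numbered 2 of 54.9 in Dex+IL-9, 78.1 in Dex+CCL1 and 56.7 in Dex, against 20.6 in IL-9, 46.7 in CCL1 and 22.1 in unstimulated cells. Its difference was 1.07 within number 2 (adjusted p = 0.0334), a call that rests on leaving out the array CCL1 2. With that array added it was 0.82 (adjusted p = 0.0989), while Tsc22d3 and Fkbp5 kept theirs at 1.84 and 1.03 (adjusted p = 2.13e-06 and 0.000338).

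No member passed an adjusted p of 0.05 in any of 15 comparisons, 10 with a mean for each group and 5 with Dex split by array number. Calls were few among all 13575 probe sets tested. The share called was 0% for Dex against its control in each of 3 cytokine conditions and for their average. It was 0.0221% for IL-9 versus unstimulated and for Dex+IL-9 versus Dex, and 0.0958% for the IL-9 average. For CCL1 it was 0% versus unstimulated, 0.00737% for Dex+CCL1 versus Dex, and 0.00737% for the average. In the split model it was 0.597% for Dex within number 2 and 0% within number 1. Number 1 against number 2 gave 0.796% without Dex and 0.0221% with Dex, and the difference between the Dex effects gave 0.206%. A count of 0 among 12 probe sets is near these shares and is no result about the members. At an unadjusted p under 0.05, limma gave 1 of the members' 12 probe sets for Dex+CCL1 versus Dex (Hsp90aa1), against 6.52% of all probe sets. It gave 1 for Dex within number 2 (Ncoa1, against 10.5%) and 1 for the difference between the Dex effects (Ncoa1, against 10.1%). Number 1 against number 2 gave 2 probe sets without Dex and 2 with Dex, all of Nr3c1, against 9.17% and 15.8% of all. The other comparisons gave 0.

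Nr3c1 was read by 3 probe sets. Probe set 1421867_at, the brightest, had signals of 214 and 245 in Dex+IL-9, 262 and 195 in Dex+CCL1, 314 and 118 in Dex, 249 and 132 in IL-9, 283 and 112 in CCL1, and 228 and 156 in unstimulated cells. Array 1 was above array 2 in every group other than Dex+IL-9, and the signals with and without Dex overlapped. Probe set 1421866_at had 74.5 and 55.6 in Dex+IL-9, 106 and 48.6 in Dex+CCL1, 91.0 and 26.6 in Dex, 72.0 and 44.1 in IL-9, 98.9 and 26.8 in CCL1, and 66.2 and 44.0 in unstimulated cells. Here array 1 was higher in 6 of 6 groups, and the arrays numbered 1 (66.2 to 106) did not overlap those numbered 2 (26.6 to 55.6). Of all probe sets tested, 0.663% had number 1 wholly above number 2 in this way. Probe set 1460303_at had 111 and 146 in Dex+IL-9, 167 and 115 in Dex+CCL1, 181 and 71.3 in Dex, 109 and 103 in IL-9, 137 and 76.6 in CCL1, and 201 and 122 in unstimulated cells. Its array 1 was above array 2 in the groups other than Dex+IL-9. Of all probe sets, 16.1% had array 1 higher in at least 5 of the 6 groups.

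**Figure D1:**
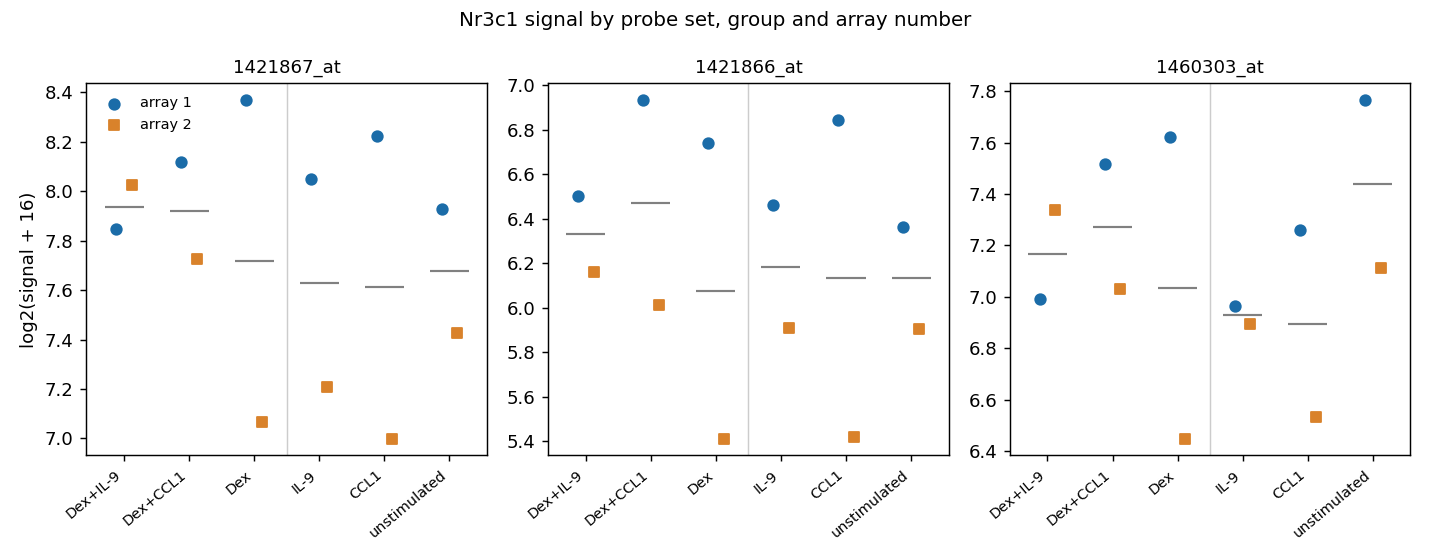
Signal of the 3 Nr3c1 probe sets as log2(signal + 16), by group (Dex groups left of the line) and array number (circles array 1, squares array 2), with grey bars at the group mean of 2 arrays. Each panel has its own y axis. Circles lie above squares in all 6 groups for 1421866_at and in the groups other than Dex+IL-9 for the other probe sets.

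The order of the group means of 1421867_at was Dex+IL-9 (229 ± 21.5), Dex+CCL1 (229 ± 47.0), Dex (216 ± 139), unstimulated (192 ± 50.7), IL-9 (190.4 ± 82.7) and CCL1 (197 ± 121), ranked by mean log2 value (signal, SD, n = 2 each). No neighbours in this order differed by more than the larger of their SDs, and the whole range of group means was 0.33 log2. The order was not shared by the probe sets. Mean signal of 1460303_at was highest in unstimulated cells (162 ± 56.0) and that of 1421866_at in Dex+CCL1 (77.3 ± 40.6).

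No change in Nr3c1 with Dex passed the threshold at this number of arrays. The average over cytokine conditions and the comparison within number 1 did not detect the target Tsc22d3 either. Its differences there were 0.58 and -0.02 log2 (limma, adjusted p = 0.9999 and 0.9998). These comparisons therefore cannot decide whether Dex changed Nr3c1. Averaged over the cytokine conditions, the difference of 1421867_at was 0.01 log2 (SE 0.24, 95% interval -0.50 to 0.53, adjusted p = 0.9999). Within number 2 it was 0.24 (SE 0.24, interval -0.29 to 0.77, adjusted p = 0.756), and within number 1 it was 0.04 (SE 0.21, interval -0.42 to 0.50, adjusted p = 0.9998). The other probe sets gave -0.15 (1421866_at) and -0.09 (1460303_at) within number 2. Without the array Dex 2, which had the lowest or next lowest Nr3c1 signal on each probe set, the differences within number 2 were 0.60 (adjusted p = 0.268), 0.06 (adjusted p = 0.945) and 0.36 (adjusted p = 0.590) for 1421867_at, 1421866_at and 1460303_at. The same array had the highest Tsc22d3 signal of all 12. IL-9 averaged over Dex conditions gave 0.08 (SE 0.27, adjusted p = 0.961) for 1421867_at, but -0.24 without Dex 2 and 0.41 without Dex 1. CCL1 gave 0.37 (SE 0.30, adjusted p = 0.934), but 0.05 without Dex 2, 0.70 without Dex 1 and 0.07 with CCL1 2 added. None of these passed the threshold.

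Number 1 minus number 2 was positive for every Nr3c1 probe set, with and without Dex, but passed the threshold for none. Number 1 minus number 2 was 0.70 log2 without Dex (SE 0.24, interval 0.17 to 1.23, adjusted p = 0.336) and 0.51 with Dex (SE 0.21, interval 0.05 to 0.97, adjusted p = 0.272) for 1421867_at. For 1421866_at it was 0.54 without Dex (adjusted p = 0.381) and 0.86 with Dex (SE 0.17, interval 0.49 to 1.24, adjusted p = 0.105). For 1460303_at it was 0.30 and 0.44 (adjusted p = 0.826 and 0.409). The intervals of the first 2 probe sets lay above 0. The call depended on single arrays. Without Dex 2, the difference of 1421867_at without Dex was 0.75 (SE 0.16, adjusted p = 0.0284), when 1.6% of all probe sets were called, and with Dex it was 0.20 (adjusted p = 0.628). Without the array Dex+IL-9 2, the difference with Dex was 0.80 (SE 0.18, adjusted p = 0.0389), when 3.89% of all probe sets were called. With CCL1 2 added, it was 0.86 without Dex (adjusted p = 0.0724). The receptor targets stood beside this: without Dex, number 1 minus number 2 was 1.71 for Tsc22d3 (adjusted p = 5.75e-05) and 1.11 for Fkbp5 (adjusted p = 0.00162), and with Dex it was -0.11 and -0.03 (adjusted p = 0.700 and 0.916). Any link between these patterns was not tested.

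The probe sets of Nr3c1 agreed in part. Over the 12 arrays, log2 values of 1421866_at and 1421867_at correlated with r = 0.927 and rho = 0.909 (permutation test, adjusted over 3 pairs, p = 6e-05 and 0.00033). The r was 0.846 without Dex 2 and CCL1 2, the arrays farthest from the median. For 1421866_at with 1460303_at the values were r = 0.771 and rho = 0.657 (permutation p = 0.00408 and 0.0232, adjusted), and r fell to 0.501 without those arrays. For 1421867_at with 1460303_at they were r = 0.809 and rho = 0.741 (permutation p = 0.00194 and 0.0115, adjusted), and 0.601 without them. The 2 correlations with 1460303_at thus rested in part on Dex 2 and CCL1 2. Within the 6 arrays numbered 1, r was 0.679, 0.160 and 0.329 for these 3 pairs (exact permutation p = 0.458, 0.751 and 0.751, adjusted), and within the 6 arrays numbered 2 it was 0.886, 0.967 and 0.900 (exact permutation p = 0.0306, 0.025 and 0.0292, adjusted). Agreement was thus shown within number 2 and not within number 1, and the difference between them was not tested.

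Hsp90aa1 was strongly expressed. Probe set 1426645_at had signals of 3258 and 3209.6 in Dex+IL-9, 3598 and 4145 in Dex+CCL1, 3465 and 2079 in Dex, 4015 and 3480.1 in IL-9, 2940.1 and 3411 in CCL1, and 3389 and 2745 in unstimulated cells. Dex 2 was the lowest array on all 3 probe sets, at 2079, 1579.8 and 1866, while the next lowest arrays had 2745, 2712 and 2620.4. The highest array was Dex+CCL1 2 on all 3, at 4145, 3634 and 3600.0. Of all 13575 probe sets, 17% had their lowest value in Dex 2, among them 6 of the members' 12. These were the 3 of Hsp90aa1, 1421866_at and 1460303_at of Nr3c1, and that of Ncoa2. Probe sets of the same gene share a transcript and are not independent.

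Dex+CCL1 minus Dex was 0.52 log2 for 1426645_at (SE 0.22, interval 0.04 to 1.01, adjusted p = 0.745), and 0.55 and 0.49 for 1437497_a_at and 1438902_a_at (adjusted p = 0.748 and 0.753). The 2 Dex arrays lay far apart. Without Dex 1 it was 0.89 (SE 0.22, adjusted p = 0.0433), when 3.91% of all probe sets were called. That value sets Dex+CCL1 against Dex 2 alone, the array that stood apart, whose spread is assumed to equal that of the other groups. Without Dex 2 the difference was 0.16 (SE 0.22, adjusted p = 0.971). IL-9 averaged over Dex conditions gave 0.28 (SE 0.16, adjusted p = 0.654), and 0.10 without Dex 2. Dex within number 2 gave -0.08 (interval -0.57 to 0.40, adjusted p = 0.925), but 0.20 without Dex 2 (SE 0.22, adjusted p = 0.819), and within number 1 gave 0.01 (interval -0.41 to 0.43, adjusted p = 0.9998).

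Of the 6 measured members, 3 had a promoter in the RefSeq table (GRCm38.p6). Those of Fkbp4 and Stip1, the co-chaperones, are shown because both genes are known to be heat-inducible in mammalian cells. Each sequence spans 250 bases before to 50 after the annotated start, on the minus strand, at chr6:128438607-128438906 for Fkbp4 and chr19:7039977-7040276 for Stip1. Capitals mark matches to GAANNTTC, the core of a heat shock element, and to CCAAT, on either strand.
Fkbp4: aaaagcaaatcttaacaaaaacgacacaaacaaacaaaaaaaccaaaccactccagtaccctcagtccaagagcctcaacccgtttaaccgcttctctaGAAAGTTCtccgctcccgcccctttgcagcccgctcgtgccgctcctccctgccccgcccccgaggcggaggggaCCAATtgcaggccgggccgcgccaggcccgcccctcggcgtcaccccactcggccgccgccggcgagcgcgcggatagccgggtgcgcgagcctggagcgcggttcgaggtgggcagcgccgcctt
Stip1: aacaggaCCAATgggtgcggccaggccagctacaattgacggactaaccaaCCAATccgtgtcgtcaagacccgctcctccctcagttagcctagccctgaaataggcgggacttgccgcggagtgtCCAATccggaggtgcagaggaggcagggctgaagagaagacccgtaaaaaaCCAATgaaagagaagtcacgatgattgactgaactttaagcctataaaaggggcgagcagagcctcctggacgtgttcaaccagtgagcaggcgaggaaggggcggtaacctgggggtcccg
GAANNTTC occurred once in Fkbp4, 151 bases before the start, and not in Stip1. It was found in 7.86% of 32851 promoters. The other orientation of that core, TTCNNGAA, was in neither, and in 8.52% of promoters. CCAAT on either strand occurred once in Fkbp4 and 4 times in Stip1, and was in 37.4% of promoters. ACANNNTGT, the core of a glucocorticoid response element, was in neither, and in 6.85% of promoters. GAANNTTC, TTCNNGAA and ACANNNTGT read the same on both strands. A match is a match of letters, not a binding site.

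Fkbp4 varied little. Probe set 1416362_a_at had signals of 312 and 370.0 in Dex+IL-9, 335 and 353 in Dex+CCL1, 302 and 372 in Dex, 297 and 342 in IL-9, 332 and 364 in CCL1, and 292 and 331 in unstimulated cells. Array 1 was below array 2 in 6 of 6 groups, as for 5.5% of all probe sets, but the arrays numbered 1 and 2 overlapped. Number 1 minus number 2 was -0.20 log2 with Dex (SE 0.10, interval -0.41 to 0.02, adjusted p = 0.355) and -0.15 without (SE 0.11, adjusted p = 0.772). Dex gave 0.09 within number 2 and 0.04 within number 1 (adjusted p = 0.814 and 0.9998). The second probe set, 1416363_at, had signals of 2.17 to 15.8, a range that spans the filter level.

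Stip1 had signals of 578 and 560.1 in Dex+IL-9, 621 and 521 in Dex+CCL1, 507 and 571 in Dex, 517 and 717 in IL-9, 575 and 595 in CCL1, and 498 and 527 in unstimulated cells. IL-9 2 was the highest array, and the signals with and without Dex overlapped. Not every pair of groups did, with 2 arrays each. Unstimulated cells lay below Dex+IL-9 and CCL1, and Dex lay below CCL1. Such separation was not counted over all probe sets and is no result about Stip1. Other members had it too. Unstimulated cells lay below Dex+CCL1 and CCL1 for Fkbp4 (1416362_a_at), and below every group other than Dex for Ncoa2. IL-9 minus unstimulated was 0.24 log2 (SE 0.17, interval -0.14 to 0.62, adjusted p = 0.996). Dex within number 2 was -0.18 (SE 0.14, adjusted p = 0.653), and -0.31 without Dex 2 (SE 0.13, adjusted p = 0.444).

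**Figure D2:**
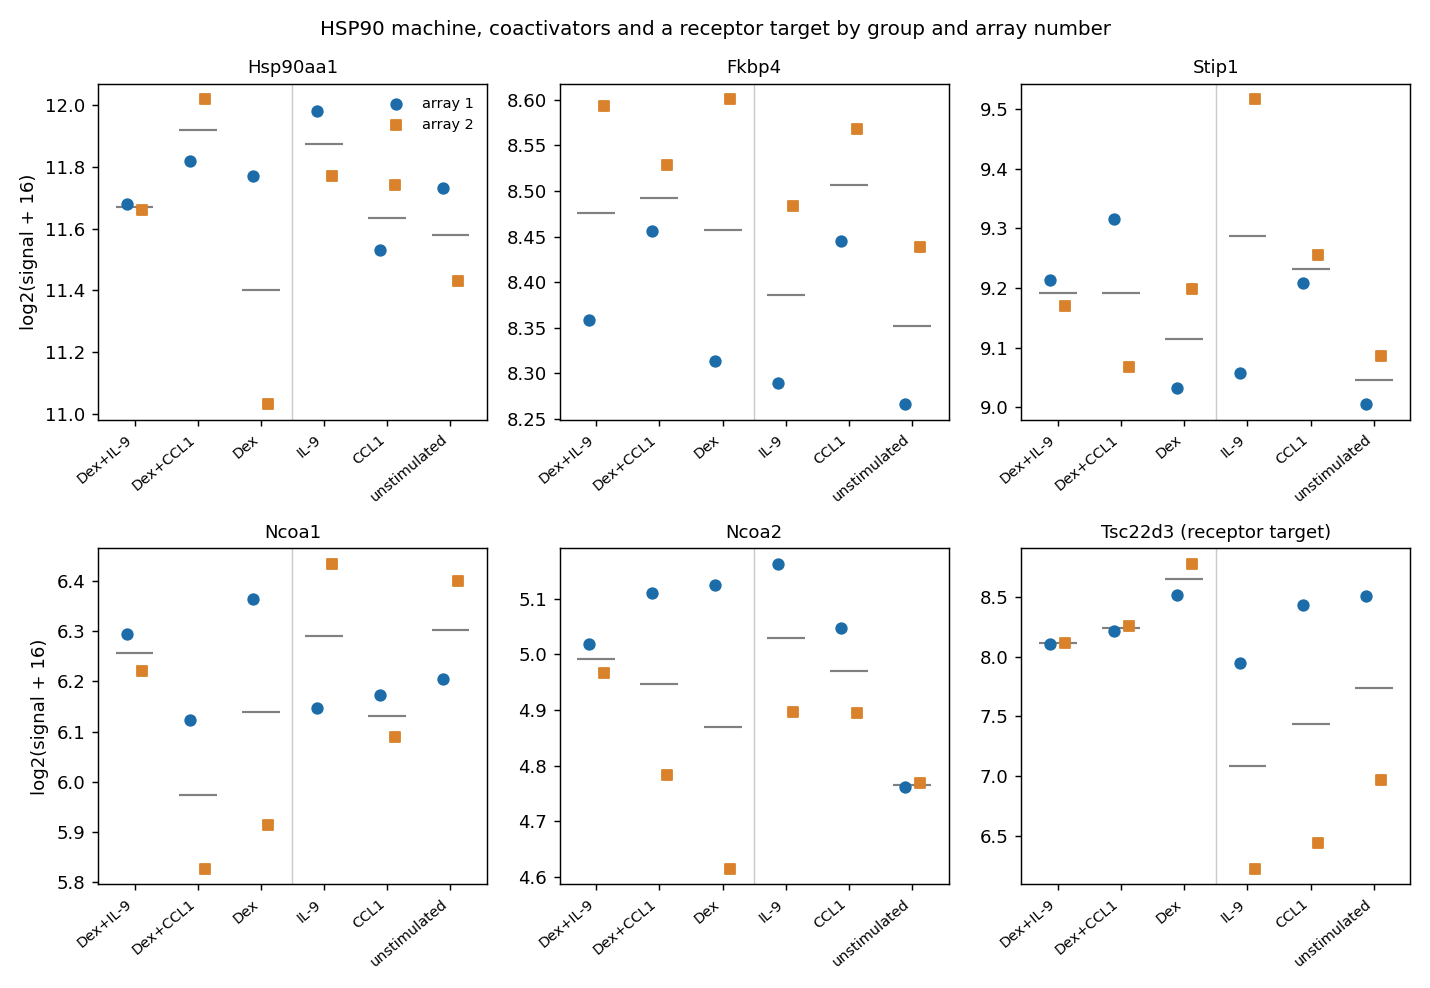
Signal as log2(signal + 16) of the brightest probe set of 5 members and of Tsc22d3, by group (Dex groups left of the line) and array number (circles array 1, squares array 2), with grey bars at the mean of 2 arrays. Each panel has its own y axis. Dex 2 is the lowest array for Hsp90aa1 and Ncoa2, Fkbp4 is lower in array 1 of all 6 groups, and Tsc22d3 is high in array 1 of the groups without Dex.

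Among the coactivators, Ncoa1 had signals on 1418594_a_at of 62.5 and 58.5 in Dex+IL-9, 53.6 and 40.7 in Dex+CCL1, 66.3 and 44.3 in Dex, 54.8 and 70.5 in IL-9, 56.1 and 52.1 in CCL1, and 57.7 and 68.5 in unstimulated cells. Of the arrays numbered 2, all 3 with Dex lay below IL-9 2 and unstimulated 2, but Dex+IL-9 2 lay above CCL1 2. Dex within number 2 was -0.38 log2 (SE 0.16, interval -0.72 to -0.04, unadjusted p = 0.0314, adjusted p = 0.429), whereas within number 1 it was 0.09 (adjusted p = 0.9998). The difference between them was 0.47 (interval 0.02 to 0.92, adjusted p = 0.491). With the array CCL1 2 added, Dex within number 2 was -0.32 (limma, adjusted p = 0.390). The difference between the numbers was then 0.41 (limma, unadjusted p = 0.051, adjusted p = 0.532). Probe set 1434515_at gave -0.14 within number 2 (adjusted p = 0.797).

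Ncoa2 was near the low end of the kept signals, at 16.4 and 15.3 in Dex+IL-9, 18.5 and 11.5 in Dex+CCL1, 18.9 and 8.48 in Dex, 19.8 and 13.8 in IL-9, 17.1 and 13.7 in CCL1, and 11.1 and 11.2 in unstimulated cells. Array 1 was higher in all groups other than unstimulated, which is 5 of 6. Of all probe sets, 16.1% had array 1 higher in at least 5 of 6 groups. Number 1 minus number 2 was 0.30 log2 with Dex (SE 0.15, interval -0.04 to 0.63, adjusted p = 0.374) and 0.15 without (adjusted p = 0.871). Folds of so low a signal are understated on the log2(signal + 16) scale.

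**Figure D3:**
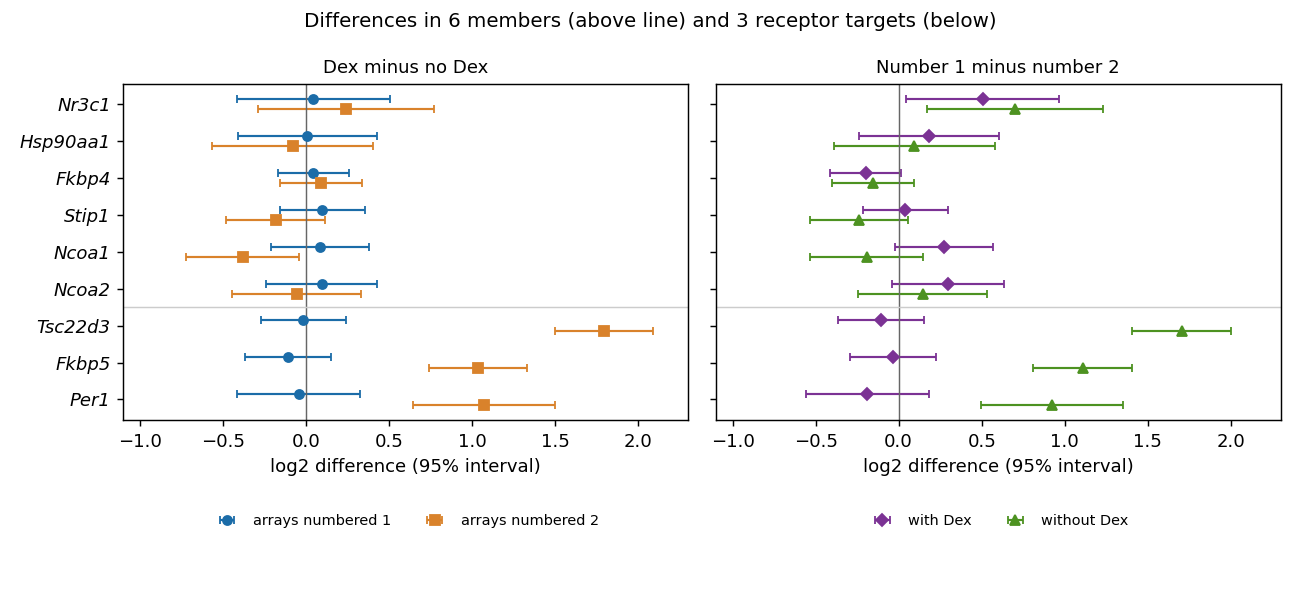
Log2 differences with 95% intervals from the model split by array number, for 6 members (above the line) and 3 receptor targets (below). On the left, Dex minus no Dex within arrays numbered 1 and 2; on the right, number 1 minus number 2 with and without Dex. The Nr3c1 intervals for number 1 minus number 2 lie above 0 before adjustment, and the Dex effect within number 2 is 1.03 to 1.79 log2 for the targets.

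**Figure D4:**
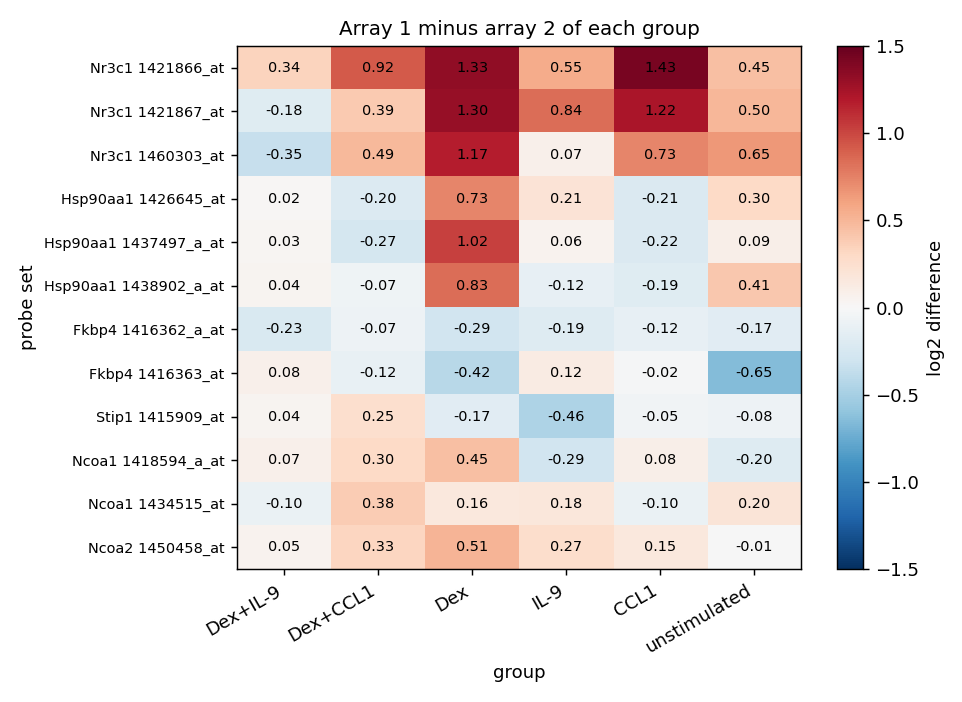
Array 1 minus array 2 of each group (log2 difference of log2(signal + 16)) for the 12 probe sets, coloured by size. The 3 Nr3c1 probe sets are positive in the groups other than Dex+IL-9, with 1.17 to 1.33 in Dex; Hsp90aa1 stands out in the Dex group only among these 6 groups, at 0.73 to 1.02, and Fkbp4 1416362_a_at is negative in all 6.

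Other genes of the pathway were read against the share called among all probe sets, 0.597% for Dex within number 2 and 0.796% for number 1 minus number 2 without Dex. The HSP90 machine partners list held 25 genes, of which 23 had a probe set and 21 were kept. Within number 2, only Fkbp5 rose with Dex, and none fell; the list median was 0.04 log2, against -0.01 over all probe sets. Hsp90b1, the endoplasmic reticulum paralog of HSP90, had -0.47 (adjusted p = 0.530), and Chordc1, an HSP90-binding co-chaperone, had -0.32 (adjusted p = 0.634). Of the receptor coregulators, 23 of 27 were kept and 0 were called there. Ncoa4 had -0.53 (adjusted p = 0.250), the corepressor Nrip1 had 0.59 (adjusted p = 0.462), Trim24 had -0.36 (adjusted p = 0.459) and the deacetylase Hdac1 had -0.29 (adjusted p = 0.477). The coregulator median was -0.07. Of the genes of nuclear import and ligand access, 9 of 15 were kept, with 0 called and a median of -0.01. Counts of 0 in lists of this size are near the share over all probe sets and are no result about the lists. The importin Kpna1 had -0.47 (adjusted p = 0.213). Without Dex, number 1 against number 2 likewise called only Fkbp5 of the HSP90 list and none of the coregulators or import genes. Of the 10 glucocorticoid response markers, 7 were kept. Within number 2, 5 of 7 were higher with Dex, with a median of 1.03. Without Dex, 5 of 7 were higher in number 1, with a median of 0.93. Fkbp5, also in the HSP90 list, was among those called in both comparisons. The marker list was chosen with these results known.

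The genes whose signals followed 1421867_at most closely over the 11 arrays, among 7501 genes, were Eml5 (r = 0.921, rho = 0.900), Rb1cc1 (0.914 and 0.882), Ddx50 (0.911 and 0.755), Acp1 (0.875 and 0.900) and Mbtd1 (0.869 and 0.755). The most opposite were Oaf (r = -0.949, rho = -0.927), Pkmyt1 (-0.922 and -0.900), Naa40 (-0.909 and -0.882), Man2b2 (-0.905 and -0.764) and Smarcd1 (-0.886 and -0.836). These are descriptions over arrays that share the array numbers and Dex 2. Median Eml5 signal was 54.2 in the arrays numbered 1 and 31.8 in those numbered 2, and Oaf had 229 and 342. Among the members, r and rho to 1421867_at were 0.778 and 0.8 for Ncoa2, and 0.516 and 0.2545 for Hsp90aa1. They were 0.099 and -0.045 for Ncoa1, -0.399 and -0.2455 for Stip1, and -0.500 and -0.4545 for Fkbp4.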

How the data were processed

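Total RNA of 12 BW5147 samples was hybridised to Affymetrix arrays. The deposited values are MAS5 signal intensities on a linear scale, per the submitters' processing notes, in 2 tables with 11 arrays and 1 array; the MAS5 version is not given in the sources used here. Each array's mean after trimming 2% at each end was near 100, so a shift of all genes could not be seen. The arrays' number limits the precision.

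After removal of 64 control probe sets, 22626 remained, of which 20380 had 1 gene symbol in the annotation of the platform, 691 more than 1 and 1555 none. Of the 20380, 20351 matched the RefSeq gene table (GRCm38.p6) by gene ID, which changed 0 symbols. Signals were transformed as log2(signal + 16). The 13575 probe sets above the 40th percentile of the mean over 11 arrays were tested with limma 3.58.1 (R 4.3.3), with Benjamini-Hochberg adjustment and moderation along the intensity trend. One model had a mean per group (5 residual and 6.47 prior degrees of freedom). The other split Dex by array number, with additive IL-9 and CCL1 terms (5 and 6.96). In these models CCL1 alone had 1 array, assumed to vary like the other groups. A gene was described by its brightest probe set, with the others beside it. Correlations between Nr3c1 probe sets used 1e+05 permutations over 12 arrays, and all permutations within 6. The fits were tested on simulated data. Members were named in full. From each list, genes past the threshold and up to 4 others were named; of the response markers, Tsc22d3, Fkbp5 and Per1; and the 5 genes most and least like Nr3c1. Dusp1 is named in the closing section because its difference was past the threshold there. The members, lists, tests and alternatives were chosen with earlier results of these data known. Alternatives were pseudocounts of 1 and 64, no filter or a 60th percentile filter, median centring, quantile normalization, no trend, a replicate block, the array CCL1 2 added, the mean of all probe sets per gene, a log2 difference of at least 1, and each array left out. Replicate arrays shared no identical values, and their median absolute difference was 0.168 to 0.258 log2.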

Additional observations from a re-analysis of the deposited data

Results flagged for a closer look

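The effect of Dex differed between the array numbers for 3 receptor targets, by an interaction term in limma over 13575 probe sets. Of all these, 0.206% were called. The split by array number was chosen after glucocorticoid targets had been seen at Dex level in number 1 without Dex. The adjusted p-values of these targets therefore describe that pattern and are no independent support for it. The difference, number 1 minus number 2, was -1.81 log2 for Tsc22d3 (SE 0.18, adjusted p = 0.00122), -1.59 for Dusp1, a phosphatase gene (SE 0.18, adjusted p = 0.00181), and -1.14 for Fkbp5 (SE 0.18, adjusted p = 0.0221). Within number 1 the Dex effects were -0.02, -0.25 and -0.11, against 1.79, 1.34 and 1.03 within number 2. For Nr3c1 (1421867_at) the same difference was -0.20 (SE 0.32, adjusted p = 0.870) and did not pass.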

How the results depend on the processing

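The number of members called was recomputed 321 times under 11 alternatives and 11 left-out arrays, and 318 of these counts were unchanged. The count was 0 to 1 when an array was left out for Dex+CCL1 versus Dex (Hsp90aa1, without Dex 1), for number 1 minus number 2 without Dex (Nr3c1, without Dex 2) and with Dex (Nr3c1, without Dex+IL-9 2). Of 881 differences of members, 52 changed sign while past the threshold in neither setting. Counts over all probe sets moved more. Without Dex 1, which leaves the outlying Dex 2 as the only array of its group, with a spread assumed from the other groups, they were 529 for Dex versus unstimulated, against 0 with all arrays, 669 for Dex+IL-9 versus Dex (3), 358 for the IL-9 average (13), 531 for Dex+CCL1 versus Dex (1) and 66 for the CCL1 average (1). Without Dex+IL-9 2, number 1 minus number 2 with Dex gave 528 (3). Under left-out arrays, Dex within number 2 gave 29 to 116 (81), number 1 minus number 2 without Dex 46 to 217 (108) and the difference between Dex effects 15 to 44 (28). Other alternatives gave 39 to 110, 58 to 199 and 22 to 34. Arrays with the same number shared deviations in part: correlations over 10 pairs of groups ran from -0.00506 to 0.307, 5 of them over 0.1, among them all 3 pairs of Dex groups. The others were not over 0.1, and the labels do not tie the numbers to a batch. The model with a mean per group therefore did not use the numbers as pairs. Differences between the numbers stay in its spread, while the split model holds the number as a term. With the replicate block, 0 members were called, and Dex+IL-9 versus Dex gave 6 probe sets and the IL-9 average 18.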
